A study of Mus musculus with 8 samples.

Results

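The 10 genes described here encode the proteins of the synaptonemal complex and of the HORMA-domain axis of meiotic chromosomes: Sycp1, Sycp2, Sycp3, Syce1, Syce2, Syce3, Tex12, Hormad1, Hormad2 and Trip13. They were taken by name, with no threshold on a measured value, from the 27632 reference genes named in the files, and all 10 were found. RNA was sequenced from spermatocytes that had been sorted by flow cytometry from the testes of C57BL/6 mice aged 2 months. There were 4 groups of 2 libraries: leptotene cells of Bend2 wild-type mice (WT leptotene), leptotene cells of Bend2 knockout mice (KO leptotene), and zygotene cells of each genotype (WT zygotene, KO zygotene). The labels do not say how Bend2 was disrupted, and no line named Bend2 was used here to check the labels. The labels do not say whether the libraries of a group came from different animals, and the p-values below therefore rest on a spread that may be technical.

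In meiotic prophase each pair of sister chromatids is organised as loops along a protein axis, and the synaptonemal complex then joins the axes of homologous chromosomes like a zip. The lateral elements hold SYCP2 and SYCP3, the transverse filaments are made of SYCP1, and the central element holds SYCE1, SYCE2, SYCE3 and TEX12. HORMAD1 and HORMAD2 mark axes that have not synapsed, and the ATPase TRIP13 takes part in their removal as synapsis proceeds. Axes form in leptotene and synapsis starts in zygotene, so the labelled stages are those in which these proteins are assembled.

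The libraries were checked against marker genes before the members were compared. Summed named-transcript TPM (defined below) of 8 leptotene and zygotene markers lay between 241 and 682 in the 4 WT libraries and between 449 and 595 in the 4 KO libraries. The genotypes overlapped at leptotene (367 and 682 in WT, 449 and 582 in KO). At zygotene both KO libraries (488 and 595) were above both WT libraries (241 and 444). RNA of later germ cells was higher in WT: 7 pachytene markers summed to 748 to 1099 in WT against 53.0 to 197 in KO, and 7 round spermatid markers to 4360 to 9204 against 569 to 1450. Spermatogonial markers went the other way, with 7 of them summing to 96.4 to 181 in WT and 302 to 400.0 in KO. Averaged over the stages, 6 of these 7 spermatogonial markers rose in KO, while 5 of 7 pachytene and 5 of 7 round spermatid markers fell (limma, adjusted p under 0.05). In bulk RNA, fewer cells of a type and less RNA per cell cannot be told apart. Of the somatic lists, 5 Sertoli markers summed to 88.0 to 221 in WT and 93.2 to 158 in KO (none called), and 5 Leydig markers to 27.3 to 151 and 73.5 to 171 (Cyp11a1 rose). Macrophage markers summed to 76.6 to 179 and 7.77 to 25.8 (1 of 5 fell, Aif1), and peritubular markers to 80.3 to 293 and 1.16 to 118 (2 of 4 fell, Mgp and Tagln). The peritubular sums of KO were 1.16 and 6.80 at leptotene and 43.5 and 118 at zygotene. When tested by the exon level, defined below, 4 of 5 macrophage and 4 of 4 peritubular markers fell and no Leydig or Sertoli marker was called. By that measure 5 of 7 spermatogonial markers and Stra8, of the 8 leptotene and zygotene markers, rose, and 6 of 7 pachytene and 7 of 7 round spermatid markers fell. A further split of the libraries crosses the groups, since unnamed single-exon lines held 9.90% to 14.4% of the TPM in 1 library of each group and 22.3% to 24.0% in the other.

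Each file lists transcripts that StringTie assembled in 1 library, and a line has a gene name only where the assembled structure matches an annotated transcript. The measure fixed for the tests was named-transcript TPM: the sum over a gene's named lines of TPM (a level per transcript length, relative to all assembled transcripts of the library), scaled between libraries. It lost much of several members. Named lines held a median of 100% of the assembled TPM of Sycp3 and 98.2% of Syce1, but 53.2% of Hormad2, 51.9% of Syce2 and 0.654% of Sycp2. A second measure was therefore added after the data were seen: the exon level, which is the mean over all annotated exon bases of a gene of the same-strand signal of every assembled line, in TPM units. It was added because named lines miss Sycp2 and, in 3 of 4 zygotene libraries, Hormad1. It was one of 4 gene measures computed, and it was chosen after the members' values had been seen under all 4, so its calls weigh less than those of the measure fixed for the tests. Both are given side by side.

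**Figure D1:**
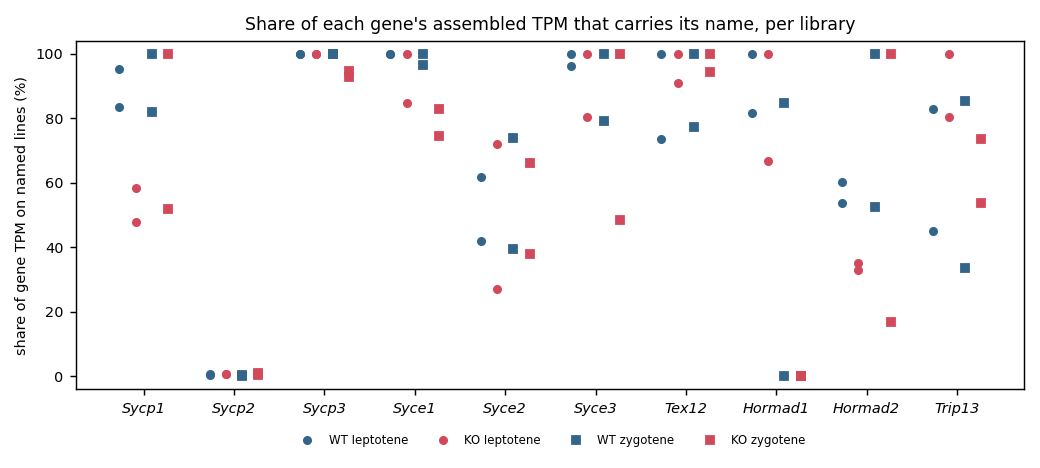
Share of each gene's assembled TPM (vertical axis, percent) that lies on lines named for that gene, 1 point per library, circles for leptotene and squares for zygotene, blue for WT and red for KO. Sycp2 is near 0 in all 8 libraries and Hormad1 is at 0 in 3 of the 4 zygotene libraries, while Sycp3 lies between 92.6% and 100%.

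Levels of different genes were compared over the exons of each gene's main transcript, in TPM units per base. Sycp3 stood first with a median of 93.8 over the 8 libraries, then Sycp2 (80.3), Sycp1 (80.1), Syce1 (63.0), Syce2 (46.2), Hormad1 (35.5), Syce3 (19.1), Hormad2 (18.1), Tex12 (13.8) and Trip13 (9.26). The lateral element and transverse filament genes thus had the highest medians, and Hormad2, Tex12 and Trip13 the lowest. Each gene overlapped its neighbour in this order, so no neighbouring pair was separated beyond the spread over libraries. The order pools the genotypes and was not the same in both. On this scale Sycp2 stood at 202 and 84.9 for WT leptotene, 50.8 and 93.9 for KO leptotene, 146 and 75.7 for WT zygotene and 65.5 and 68.9 for KO zygotene. Sycp3 stood at 141 and 70.1 for WT leptotene, 85.5 and 103.8 for KO leptotene, 102 and 65.6 for WT zygotene and 69.4 and 107 for KO zygotene, below Sycp2 in all 4 WT libraries and above it in all 4 KO libraries. In 1 library each of WT leptotene and WT zygotene, both with few unnamed single-exon lines, Sycp1, Sycp2, Sycp3 and Hormad1 were higher than in the other library of the group.

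**Figure D2:**
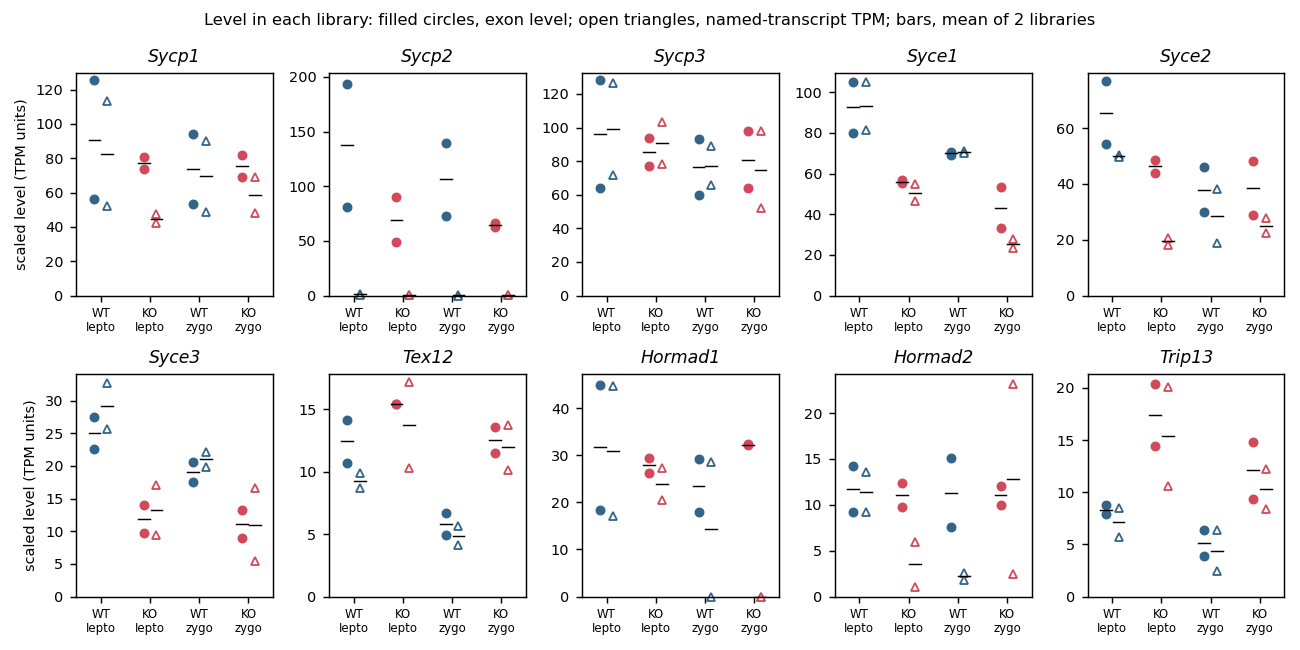
Scaled level in TPM units (vertical axis, from 0) of each gene in each library, by group: filled circles show the exon level, open triangles the named-transcript TPM, and bars the mean of 2 libraries. WT is blue and KO is red. Syce1 and Syce3 lie lower in every KO library than in any WT library by both measures, and Trip13 lies higher by the exon level.

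The comparison of KO with WT asks how the genes that build axes and the synaptonemal complex are expressed without Bend2. At a single stage no member passed the test in the main fit, though some did under other settings given in the closing section. By named-transcript TPM, 0 of 9 tested members were called at leptotene, where 1.12% of the 16951 genes tested were called, and 0 of 9 at zygotene, against 1.3% of genes. An unadjusted p under 0.05 was reached by 2 of 9 members at each stage, against 17.4% and 16.2% of all genes. Groups of 2 libraries often do not overlap: this held for 7 of 9 members at leptotene and 4 of 9 at zygotene, against 45.2% and 47.3% of genes, and by the exon level for 5 and 6 of 10 members, against 54.5% and 56.5%. By the exon level, 0 of 10 members were called at either stage, against 6.72% and 5.12% of 20206 genes, with an unadjusted p under 0.05 for 3 and 4 of 10 members, against 26.8% and 24.8% of all genes. With both stages averaged, which sets 4 KO against 4 WT libraries, Syce1 was called lower by named-transcript TPM (1 of 9 members, against 7.93% of all genes in either direction and 6.32% lower). The exon level called Syce1 and Syce3 lower and Tex12 and Trip13 higher (4 of 10 members, against 23.5% of all genes, 14.9% lower and 8.62% higher). The median log2 fold change of the members was -0.49 by named-transcript TPM (all genes -0.12) and -0.01 by the exon level (all genes -0.07). A test of whether the genotype difference itself differed between the stages called no member by either measure, and none had an unadjusted p under 0.05, against 4.23% and 2.4% of all genes.

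**Figure D3:**
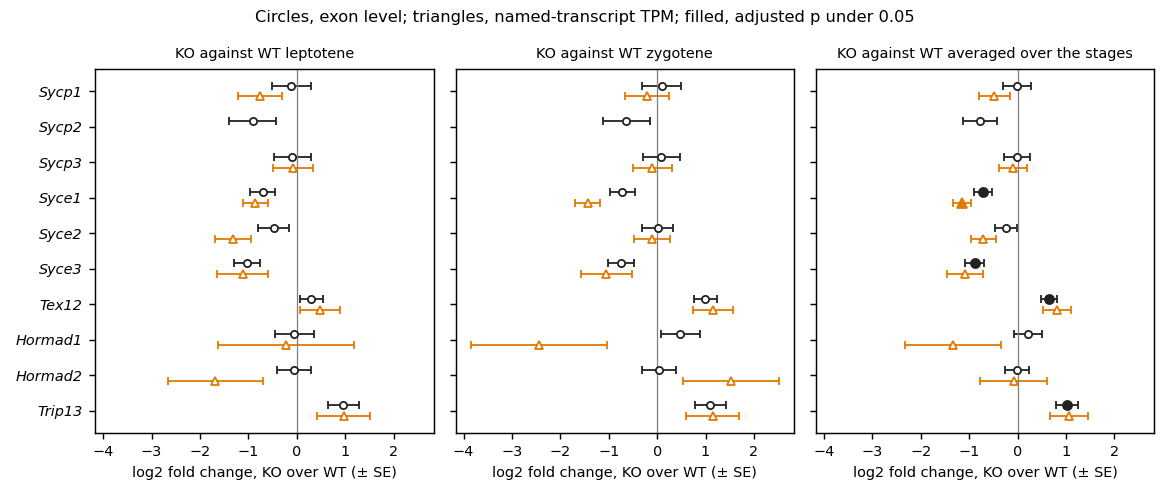
Log2 fold change of KO over WT (horizontal axis) with its standard error for each gene, at leptotene, at zygotene and averaged over the stages. Circles are the exon level and triangles the named-transcript TPM, and filled symbols have an adjusted p under 0.05: Syce1 by both measures, and Syce3, Tex12 and Trip13 by the exon level, in the average only.

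The lateral element gene Sycp3 (ENSMUSG00000020059, chromosome 10, 88459569 to 88473236, plus strand, GRCm38) did not pass any test between genotypes. Its named-transcript TPM was 126 and 72.1 for WT leptotene, 78.6 and 103 for KO leptotene, 88.9 and 65.7 for WT zygotene and 51.9 and 98.1 for KO zygotene. The genotypes overlapped at both stages, and the averaged log2 fold change was -0.09 ± 0.29 by named-transcript TPM and -0.00394 ± 0.27 by the exon level (limma, Benjamini-Hochberg adjusted p = 0.892 and 0.994). Exons of Chpt1 on the other strand overlap 52.2% of the exon bases of Sycp3. The files' headers give no strand option, so reads of the pair may not be fully separated.

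What did separate the Sycp3 libraries of KO leptotene was a form that keeps the last intron, 124 bases long (chromosome 10, 88472781 to 88472904). As a share of the named TPM, this form held 14.6% and 18.2% for WT leptotene, 1.82% and 5.21% for KO leptotene, 15.6% and 16.7% for WT zygotene and 33.9% and 19.2% for KO zygotene. Both KO leptotene libraries were thus below all others and both KO zygotene libraries above them. The level over the intron itself, as a percentage of that over the exon before it, was 8.55% and 11.5% for WT leptotene, 1.30% and 3.18% for KO leptotene, 8.11% and 10.8% for WT zygotene and 17.4% and 12.2% for KO zygotene. The segment was picked after its values were seen, and these shares were not tested.

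Sycp2 (ENSMUSG00000060445, chromosome 2, 178345293 to 178407685, minus strand), whose product pairs with SYCP3 in the lateral element, had only a 3-exon line that keeps an intron among its named lines, at 1.67 TPM or less. Its full-length assembled lines, with 43 or 44 exons, all lacked the name. The exon level of Sycp2 was 194 and 81.4 for WT leptotene, 48.8 and 90.1 for KO leptotene, 139.8 and 72.7 for WT zygotene and 62.8 and 66.2 for KO zygotene. Both KO zygotene libraries were below both WT zygotene libraries, while the leptotene groups overlapped. The averaged log2 fold change of -0.77 ± 0.34 was not called (limma, Benjamini-Hochberg adjusted p = 0.143). All 44 exons of its main transcript had a lower mean in KO, with a median log2 ratio of -0.87, and in 3 of them the KO and WT libraries did not overlap. Exons of 1 gene share their reads and libraries and are not replicates. With the share of unnamed single-exon lines as a covariate, the log2 fold change was -0.73 and passed the test (limma, adjusted p = 0.0355). That covariate was added after the data were seen. It also raised the number of all genes called by the exon level at each single stage, as given in the closing section. In the averaged comparison, 23.5% of all genes were called without the covariate. The share called with it is not given here, so the Sycp2 call has no matching background.

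**Figure D4:**
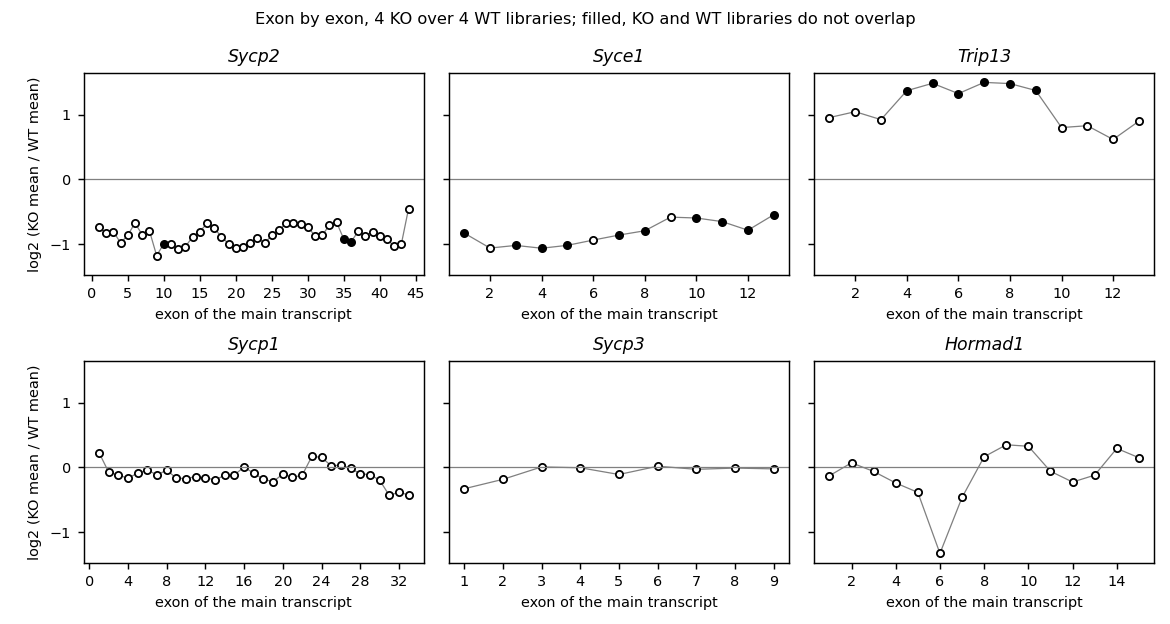
Log2 ratio of the mean exon level of the 4 KO libraries to that of the 4 WT libraries (vertical axis) for each exon of the main transcript (horizontal axis, counted from the 5′ end), with 1 added to both means. Filled points mark exons whose KO and WT libraries do not overlap: 3 of 44 in Sycp2, 10 of 13 in Syce1 and 6 of 13 in Trip13, and none in Sycp1, Sycp3 and Hormad1.

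Sycp1 (ENSMUSG00000027855, chromosome 3, 102818499 to 102936100, minus strand), which encodes the transverse filament protein, had a named-transcript TPM of 113 and 52.1 for WT leptotene, 47.3 and 42.4 for KO leptotene, 90.0 and 48.9 for WT zygotene and 47.8 and 69.1 for KO zygotene. Its KO leptotene libraries were below both WT leptotene libraries by this measure. By the exon level the values were 125 and 56.2 for WT leptotene, 73.8 and 81.0 for KO leptotene, 94.2 and 53.1 for WT zygotene and 82.1 and 69.2 for KO zygotene, and the groups overlapped at both stages. The averaged log2 fold change was -0.49 ± 0.32 and -0.01 ± 0.28 by the measures in that order (limma, Benjamini-Hochberg adjusted p = 0.393 and 0.977). Named lines held 58.2% and 47.8% of the assembled TPM of Sycp1 in the KO leptotene libraries, against 95.2% and 83.6% in WT leptotene.

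The 2 full-length named forms of Sycp1 differ by 6 bases in exon 2 and at the 3′ end, where one extends 242 bases further (chromosome 3, 102818499 to 102818740). As a share of the named TPM, the form with the shorter end held 45.8% and 55.5% for WT leptotene, 0.273% and 0.216% for KO leptotene, 48.8% and 30.6% for WT zygotene and 17.9% and 30.6% for KO zygotene. It was thus nearly missing among the named lines of KO leptotene. The largest unnamed line, outside these shares, stood at 18.6 and 35.5 TPM as deposited in KO leptotene and 5.81 and 10.1 in WT leptotene. Relative to the level of the shared part of the last exon, the extension stood at 45.4% and 34.5% for WT leptotene, 99.7% and 99.8% for KO leptotene, 39.9% and 61.0% for WT zygotene and 63.0% and 60.2% for KO zygotene. The KO leptotene libraries were the highest on this scale too, and the zygotene groups overlapped. These segments were also picked after their values were seen and carry no test.

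Among the central element genes, Syce1 (ENSMUSG00000025480, chromosome 7, 140777229 to 140787852, minus strand) fell in KO. Its named-transcript TPM was 105 and 81.3 for WT leptotene, 54.6 and 46.7 for KO leptotene, 71.0 and 70.0 for WT zygotene and 27.8 and 23.3 for KO zygotene. Every KO library was lower than every WT library, with 81.8 ± 16.3 (SD, n = 4) in WT against 38.1 ± 15.0 (SD, n = 4) in KO. The log2 fold change was -0.86 ± 0.25 at leptotene, -1.43 ± 0.25 at zygotene and -1.15 ± 0.18 averaged (limma, Benjamini-Hochberg adjusted p = 0.149, 0.0541 and 0.0151). The averaged call was lost without any one of KO leptotene 2, WT zygotene 1, WT zygotene 2 or KO zygotene 2 (adjusted p between 0.0501 and 0.0574). The exon level gave 105 and 79.8 for WT leptotene, 56.6 and 55.2 for KO leptotene, 70.7 and 69.3 for WT zygotene and 33.1 and 53.4 for KO zygotene, again with no overlap, and an averaged log2 fold change of -0.71 ± 0.18 (limma, Benjamini-Hochberg adjusted p = 0.0300).

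By the exon level the Syce1 call was lost without any one of 6 libraries, those other than WT leptotene 2 and KO zygotene 2 (adjusted p between 0.0659 and 0.0905), and with the replicate number as a block (adjusted p = 0.0530). All 13 exons of Syce1 were lower in KO, with a median log2 ratio of -0.83, and in 10 of them no KO library reached a WT library. A single 13-exon form held 99.8% to 100% of its named TPM. Lines that depart from the annotated structure carry no name, so these shares cannot show a difference in unnamed forms. Named lines held 96.4% to 100% of the assembled TPM of Syce1 in WT and 74.6% to 100% in KO. The largest unnamed line had 12 exons in WT zygotene 2 and KO leptotene 2, 11 in KO zygotene 1 and 10 in KO zygotene 2. The pachytene and spermatid markers above were lower in the same 4 KO libraries and spermatogonial markers higher, and their part in this result was not tested.

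Syce2 (ENSMUSG00000003824, chromosome 8, 84872111 to 84888221, plus strand), whose product joins TEX12 in the central element, had a named-transcript TPM of 50.4 and 49.6 for WT leptotene, 20.7 and 18.3 for KO leptotene, 38.3 and 18.8 for WT zygotene and 22.5 and 27.7 for KO zygotene. The KO leptotene libraries were below the WT leptotene libraries, and the zygotene groups overlapped. The leptotene log2 fold change was -1.32 ± 0.37 (limma, Benjamini-Hochberg adjusted p = 0.135) and, by the exon level, -0.47 ± 0.32 (adjusted p = 0.391). Averaged over the stages it was -0.71 ± 0.26 and -0.23 ± 0.23 by the measures in that order, and was not called by either. The largest unnamed line of Syce2 started at 84872438 in 5 of the 8 libraries. Over the stretch from 84872438 to 84872701, before exon 2, the level was 63.4 and 47.1 for WT leptotene, 70.2 and 66.4 for KO leptotene, 31.5 and 22.5 for WT zygotene and 16.9 and 52.8 for KO zygotene. Relative to exon 2 that stretch stood at 35.9% and 28.0% for WT leptotene, 58.5% and 65.7% for KO leptotene, 26.0% and 38.3% for WT zygotene and 24.7% and 49.4% for KO zygotene, so it was a larger part of Syce2 in KO leptotene than in WT leptotene, a stretch picked after its values were seen. The annotated first exon held 4.56% to 8.26% of the exon 2 level in all libraries.

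Syce3 (ENSMUSG00000078938, chromosome 15, 89390174 to 89410503, minus strand) encodes a central element protein of 88 residues, the shortest among the members. Its exon level was 22.5 and 27.5 for WT leptotene, 9.76 and 14.0 for KO leptotene, 20.5 and 17.5 for WT zygotene and 13.2 and 8.95 for KO zygotene. The KO and WT libraries did not overlap, with 22.0 ± 4.21 (SD, n = 4) in WT and 11.5 ± 2.49 (SD, n = 4) in KO. By the exon level Syce3 fell, with an averaged log2 fold change of -0.89 ± 0.19 (limma, Benjamini-Hochberg adjusted p = 0.0175). The call was lost without any one of WT leptotene 2, KO leptotene 1, WT zygotene 1, WT zygotene 2 or KO zygotene 2 (adjusted p between 0.0502 and 0.0610). Named-transcript TPM was 25.6 and 32.7 for WT leptotene, 9.44 and 17.1 for KO leptotene, 19.8 and 22.2 for WT zygotene and 16.6 and 5.39 for KO zygotene, also without overlap, and its averaged log2 fold change of -1.09 ± 0.38 was not called (limma, adjusted p = 0.126). Pachytene and spermatid markers were lower and spermatogonial markers higher in the same KO libraries. Their part in the Syce3 difference was not tested.

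Syce3 has 2 annotated first exons, whose starts lie 240 bases apart. The distal one (chromosome 15, 89410399 to 89410503) had a level of 8.17 and 17.9 for WT leptotene, 0.516 and 0 for KO leptotene, 3.99 and 2.53 for WT zygotene and 0 and 0 for KO zygotene. All 4 WT libraries were above all 4 KO libraries, of which 3 were listed at 0. A value of 0 means that no assembled line covered the exon. Whether reads covered it cannot be read from assembled lines. The largest unnamed line of KO zygotene 2 (89390170 to 89397518, 2 exons, 5.03 TPM as deposited) reached neither first exon. The proximal one (89410191 to 89410263) had 4.19 and 4.77 for WT leptotene, 2.50 and 10.5 for KO leptotene, 4.61 and 6.06 for WT zygotene and 6.99 and 1.10 for KO zygotene, where the genotypes overlapped. The distal exon thus held 29.4% to 79.0% of the summed level of both first exons in WT and 0% to 17.1% in KO. Both exons had lower levels than the shared exon 2, which ranged from 22.8 to 33.3 in WT and from 10.4 to 23.2 in KO, and short first exons are covered by few reads. The first exons were looked at after the gene's fall had been seen, so the contrast is a description with no test.

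**Figure D5:**
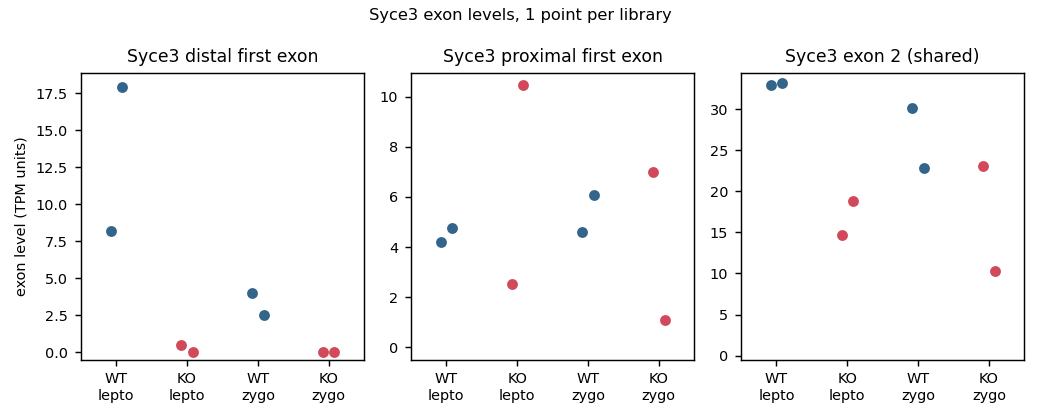
Level of the distal first exon, the proximal first exon and the shared exon 2 of Syce3 (vertical axes, TPM units, each panel on its own scale), 1 point per library. The distal first exon lies between 2.53 and 17.9 in WT and between 0 and 0.516 in KO, while the proximal first exons overlap. A level of 0 means that no assembled line covered the exon.

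The stretches that precede the start sites of Syce3 are shown because they are where these transcripts begin (RefSeq, GRCm38.p6, 5′ to 3′ on the gene's strand). Capitals mark a match to CNGTTA, the core recognised by MYB proteins, on either strand.
Syce3 before the distal start (chr15:89410504-89410753, - strand): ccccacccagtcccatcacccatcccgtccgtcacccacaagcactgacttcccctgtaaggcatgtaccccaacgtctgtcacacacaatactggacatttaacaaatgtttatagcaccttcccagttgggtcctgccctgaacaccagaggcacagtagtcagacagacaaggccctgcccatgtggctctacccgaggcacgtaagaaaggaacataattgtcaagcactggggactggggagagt
Syce3 between the distal first exon and the proximal start (chr15:89410264-89410398, - strand): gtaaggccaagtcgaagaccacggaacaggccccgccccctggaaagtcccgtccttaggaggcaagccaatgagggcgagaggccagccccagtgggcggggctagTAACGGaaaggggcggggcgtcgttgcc
The only capitals fall in the second stretch, which ends at the proximal start. CNGTTA was present within 250 bases before the start in 19.8% of 32851 RefSeq promoters, so a match in such a window is common.

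Tex12 (ENSMUSG00000032065, chromosome 9, 50556819 to 50561325, minus strand), which encodes the partner of SYCE2, was higher in KO by the exon level, at 14.2 and 10.7 for WT leptotene, 15.4 and 15.4 for KO leptotene, 6.69 and 4.95 for WT zygotene and 11.5 and 13.6 for KO zygotene. The zygotene groups were far apart, while WT leptotene 1 lay between the KO values. The averaged log2 fold change was 0.65 ± 0.17 (limma, Benjamini-Hochberg adjusted p = 0.0331), and that at zygotene alone 0.998 ± 0.24 (adjusted p = 0.0610). The averaged call was lost without either library of WT zygotene or KO leptotene, without WT leptotene 2 or without KO zygotene 2 (adjusted p between 0.0515 and 0.107). It was also lost with the replicate number as a block (adjusted p = 0.0541) and on the deposited TPM scale, at a log2 fold change of 0.50 (adjusted p = 0.149). By named-transcript TPM, at 8.69 and 9.86 for WT leptotene, 10.3 and 17.1 for KO leptotene, 4.09 and 5.62 for WT zygotene and 10.2 and 13.8 for KO zygotene, the KO libraries were all above the WT libraries by a narrow margin, with no call (0.81 ± 0.29, limma, adjusted p = 0.138). Within the central element, Syce1 and Syce3 were thus called lower and Tex12 higher by the exon level. By named-transcript TPM only Syce1 of these was called, and Syce2 was called by neither measure. Pachytene and spermatid markers were lower and spermatogonial markers higher in the same KO libraries. Their part in the Tex12 difference was not tested.

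Hormad1 (ENSMUSG00000028109, chromosome 3, 95559677 to 95587671, plus strand), which marks unsynapsed axes, shows how the 2 measures can part. Its named-transcript TPM was 44.7 and 17.0 for WT leptotene, 20.4 and 27.3 for KO leptotene, 28.6 and 0 for WT zygotene and 0 and 0 for KO zygotene. A value of 0 means that no assembled line matched an annotated form, and it is no measure of missing RNA. The exon level was 45.0 and 18.4 for WT leptotene, 26.2 and 29.5 for KO leptotene, 29.3 and 17.9 for WT zygotene and 32.2 and 32.3 for KO zygotene, so the 3 libraries at 0 lay between 17.9 and 32.3, against 18.4 to 45.0 in the other 5. At zygotene the log2 fold change was -2.44 ± 1.40 by named-transcript TPM and 0.48 ± 0.40 by the exon level, in opposite directions, and neither was called (limma, adjusted p = 0.455 and 0.512).

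In the 3 libraries without a named Hormad1 line, exon 6 of its main transcript, of 21 bases (chromosome 3, 95570666 to 95570686), was in no assembled line. The summed TPM of lines that include exon 6 was 55.0 and 21.02 in WT leptotene, 31.7 in both libraries of KO leptotene, 37.2 and 0 in WT zygotene and 0 in both libraries of KO zygotene. For exon 7, next to it, the values were 55.0, 21.02, 31.7, 31.7, 37.2, 21.8, 33.6 and 36.8 in the same order of libraries. The largest lines of KO zygotene had 14 exons, against 15 in the main annotated form, and that of WT zygotene 2 had 9 exons and began downstream of exon 6, at 95570828. Lines with exon 6 were thus present in all 4 leptotene libraries and in 1 of 4 zygotene libraries, WT zygotene 1. The exon was singled out after these values were seen, and whether reads crossed it in the other 3 libraries cannot be read from assembled lines.

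Hormad2 (ENSMUSG00000020419, chromosome 11, 4345814 to 4441105, minus strand), the paralog of Hormad1, gave named values that varied widely, at 9.20 and 13.6 for WT leptotene, 5.98 and 1.07 for KO leptotene, 1.82 and 2.59 for WT zygotene and 23.1 and 2.48 for KO zygotene. The exon level was steadier, at 14.2 and 9.19 for WT leptotene, 9.79 and 12.4 for KO leptotene, 15.1 and 7.55 for WT zygotene and 10.03 and 12.1 for KO zygotene, and the genotypes overlapped at both stages. Its averaged log2 fold change was -0.01 ± 0.25 by the exon level (limma, Benjamini-Hochberg adjusted p = 0.981). Of its named TPM, the 11-exon coding form held from 7.10% to 88.6% and a 3-exon processed transcript from 0.188% to 68.8%, so the named forms of Hormad2 could not be compared between groups.

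Trip13 (ENSMUSG00000021569, chromosome 13, 73911347 to 73937784, minus strand), the ATPase that acts on HORMA-domain proteins, had the lowest median level over the 8 libraries and the largest rise by the exon level. That median was taken over the exons of the main transcript, and on this scale its KO libraries overlapped those of Tex12, Syce3 and Hormad2. By the exon level, a different scale, its mean in KO was above theirs. The exon level of Trip13 was 7.87 and 8.75 for WT leptotene, 20.4 and 14.4 for KO leptotene, 6.35 and 3.89 for WT zygotene and 9.38 and 14.8 for KO zygotene. Every KO library was above every WT library, with 14.7 ± 4.51 (SD, n = 4) in KO against 6.72 ± 2.13 (SD, n = 4) in WT. The averaged log2 fold change was 1.03 ± 0.23 (limma, Benjamini-Hochberg adjusted p = 0.0186), with 0.96 ± 0.32 at leptotene and 1.09 ± 0.32 at zygotene. The call was lost without KO leptotene 1, WT zygotene 2 or KO zygotene 2 (adjusted p between 0.0628 and 0.0645). All 13 exons had a higher mean in KO, with a median log2 ratio of 1.05, and exons 4 to 9 showed no overlap. Named-transcript TPM was 5.68 and 8.53 for WT leptotene, 20.1 and 10.6 for KO leptotene, 6.34 and 2.41 for WT zygotene and 8.37 and 12.2 for KO zygotene and gave 1.06 ± 0.39, which was not called (limma, adjusted p = 0.142). Spermatogonial markers were higher in the same 4 KO libraries, and their part in the Trip13 difference was not tested.

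Counted over genotypes, 3 of 10 members had KO and WT libraries that did not overlap by the exon level (Syce1, Syce3 and Trip13), a share near that of all genes tested, 27.7%. By named-transcript TPM it was 3 of 9 (Syce1, Syce3 and Tex12), against 17.5% of all genes. Syce1, Syce3, Tex12 and Trip13 kept their direction under the alternatives and left-out libraries that were run. Using TPM as deposited moved the overall median log2 fold change by -0.13 on the exon level and -0.09 by named-transcript TPM, averaged over the stages.

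Between the stages no member was called in either genotype. In WT, all 10 members had a lower exon level in zygotene than in leptotene, with a median log2 fold change of -0.35 (all genes -0.03), and 2 of them, Syce2 and Tex12, had an unadjusted p under 0.05, against 4.31% of all genes. Tex12 showed the largest difference, -0.98 ± 0.24 (limma, adjusted p = 0.872). The lower WT zygotene level was not particular to the members. Of the other synapsis and axis genes listed below, 14 of 19 tested were lower by the exon level, with a median of -0.45. So were 7 of 8 leptotene and zygotene markers, with a median of -0.38. Sertoli markers (5 of 5, median 0.53) and peritubular markers (4 of 4, median 1.05) were higher. In KO, 9 of 10 members were lower, with a median of -0.10 and no unadjusted p under 0.05, against 4.69% of all genes. Across all genes, 0.00495% were called in WT and 0.0099% in KO by the exon level, and 0% and 0.0118% by named-transcript TPM. By that measure all 9 tested members were lower in WT zygotene and 6 of 9 in KO zygotene, with an unadjusted p under 0.05 for 0 and 2 of them, against 5.2% and 5.35% of all genes. These comparisons reuse the libraries of the genotype comparisons and are not independent of them.

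A list of 20 other genes of synapsis and the axis was read beside the members. By named-transcript TPM 16 of them were tested, and averaged over the stages 1 rose and none fell in KO, against 7.93% of all genes called. The gene that rose was Fkbp6, which encodes a protein located at the synaptonemal complex, with 57.6 and 54.1 for WT leptotene, 130.1 and 89.5 for KO leptotene, 46.3 and 36.7 for WT zygotene and 87.0 and 95.9 for KO zygotene (1.03 ± 0.19, limma, Benjamini-Hochberg adjusted p = 0.0251). By the exon level 19 were tested, and 2 rose (Fkbp6 and Rec114) while Syce1l fell, 3 of 19 against 23.5% of all genes called. Fkbp6 then also passed at zygotene alone (1.25 ± 0.25, limma, adjusted p = 0.0381). Rec114, a partner of the machinery that makes meiotic DNA breaks, had 4.97 and 2.19 for WT leptotene, 9.92 and 7.84 for KO leptotene, 3.77 and 4.45 for WT zygotene and 9.07 and 5.44 for KO zygotene (0.91 ± 0.27, limma, adjusted p = 0.0441). Syce1l, a paralog of Syce1, had 4.805 and 4.30 for WT leptotene, 1.57 and 1.01 for KO leptotene, 4.44 and 2.77 for WT zygotene and 2.47 and 1.96 for KO zygotene (-0.89 ± 0.23, limma, adjusted p = 0.0285). At leptotene none of the list was called by either measure. Stag3, the meiotic cohesin subunit and the highest of the list by mean named-transcript TPM, had 229 and 126 for WT leptotene, 97.1 and 229.9 for KO leptotene, 119 and 117 for WT zygotene and 127 and 135 for KO zygotene, overlapping between genotypes (-0.01 ± 0.32, limma, adjusted p = 0.988). Hspa2, of the same list, was above Stag3 in 5 of the 8 libraries.

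Promoter sequence was compared because it can be read for every member whatever its level. The 250 bases before each RefSeq start were searched on both strands for 5 motifs: CACGTG (an E-box), GCGGGAA (of E2F type), CNCCTCAG (known for STRA8), TGACGTCA (the cAMP response element) and CNGTTA (MYB). All 10 members had an entry, 13 promoters in all. CACGTG was present before Hormad1, Syce2, Sycp1, Sycp3 and Tex12 (5 of 10 genes, 6 of 13 promoters), and in 6.02% of all 32851 promoters. GCGGGAA was present before 4 of these 5, all but Sycp1 (5 of 13 promoters), and in 3.82% of all promoters. CNCCTCAG was found before Hormad2 and Syce2 (2 of 13 promoters, against 6.42% of all promoters) and TGACGTCA before none (1.55%). CNGTTA was found before 5 genes (7 of 13 promoters, against 19.8%). In Syce2 the matches to GCGGGAA and CNCCTCAG overlap. The member promoters were richer in G and C than most, at a median of 60.4% against 52.4%, and no test was made. A match is a description of the letters, and the members with CACGTG include both Tex12, higher in KO by the exon level, and Sycp1 and Sycp3, with overlapping genotypes.

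The 4 members with CACGTG whose matches lie outside annotated exons are shown (RefSeq, GRCm38.p6, 5′ to 3′ on the gene's strand, up to the first annotated exon base). Capitals mark matches to the motifs above.
Sycp1 before its start (chr3:102936101-102936350, - strand): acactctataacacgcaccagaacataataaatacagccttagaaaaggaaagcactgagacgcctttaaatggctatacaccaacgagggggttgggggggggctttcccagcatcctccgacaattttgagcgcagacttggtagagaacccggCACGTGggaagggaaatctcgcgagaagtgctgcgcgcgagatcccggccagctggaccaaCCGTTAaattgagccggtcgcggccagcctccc
Sycp3 before its start (chr10:88459337-88459568, + strand): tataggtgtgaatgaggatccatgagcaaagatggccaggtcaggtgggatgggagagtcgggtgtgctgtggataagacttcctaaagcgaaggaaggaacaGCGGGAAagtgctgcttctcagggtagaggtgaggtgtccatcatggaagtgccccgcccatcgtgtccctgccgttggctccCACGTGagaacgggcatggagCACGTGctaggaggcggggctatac
Hormad1 before its start (chr3:95559427-95559676, + strand): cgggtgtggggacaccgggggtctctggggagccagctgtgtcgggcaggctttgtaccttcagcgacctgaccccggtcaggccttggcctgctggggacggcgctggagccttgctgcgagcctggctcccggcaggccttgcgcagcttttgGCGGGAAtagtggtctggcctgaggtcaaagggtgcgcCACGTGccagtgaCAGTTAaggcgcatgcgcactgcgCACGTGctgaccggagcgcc
Tex12 before its start (chr9:50561326-50561518, - strand): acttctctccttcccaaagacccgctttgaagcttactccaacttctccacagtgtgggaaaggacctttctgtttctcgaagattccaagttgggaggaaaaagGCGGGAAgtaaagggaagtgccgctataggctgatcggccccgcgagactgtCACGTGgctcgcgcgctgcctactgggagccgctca
Sycp3 and Hormad1 each carry CACGTG at 2 places, 64 and 43 bases before the RefSeq start in Sycp3 and 57 and 20 in Hormad1. In Sycp1 it lies 94 and in Tex12 93 bases before the start. GCGGGAA lies farther out, at 147, 95 and 145 bases in Sycp3, Hormad1 and Tex12. None of the 5 motifs was found before Syce1, lower in KO, or before Trip13, higher in KO by the exon level. The stretch before Syce1 is shown because Syce1 was called by both measures.
Syce1 before its start (chr7:140787855-140788104, - strand): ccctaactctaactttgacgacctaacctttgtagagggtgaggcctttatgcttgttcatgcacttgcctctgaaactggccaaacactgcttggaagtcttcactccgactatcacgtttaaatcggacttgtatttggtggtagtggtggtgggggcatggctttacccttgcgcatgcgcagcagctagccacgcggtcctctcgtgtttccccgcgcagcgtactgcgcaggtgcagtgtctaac

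The genes outside the list whose exon level was most like the mean of the members were Sec63, Jarid2, Acaca, Nlk and Nek1. Their Pearson r lay between 0.98 and 0.99, of 7292 genes compared. It was taken over all 8 libraries, which differ in genotype, stage and assembly. In each group the members' centred log2 mean was higher in the library with the smaller share of unnamed single-exon lines. The values were 0.56 against -0.05 for WT leptotene and 0.12 against -0.04 for KO leptotene. At zygotene they were 0.11 against -0.47 for WT and 0.0047 against -0.23 for KO. The part of this split in the likeness was not tested. This is a description with no test.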

How the data were processed

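The labels' protocols name a directional library kit and say that the libraries were made together. The authors assembled each library with StringTie 2.1.2 guided by Ensembl release 89 annotation and with no strand option, per the file headers; HISAT2 and mm10 are named, with no settings, in the submitters' processing notes. The deposited lines give coverage, FPKM and TPM per assembled transcript, per the file headers, so no read counts were available to a count model. Aligned bases, computed from coverage, came to 6.82 to 9.45 gigabases a library; precision is limited by 2 libraries a group.

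Named TPM was summed per gene, scaled by medians of ratios, kept where at least 1 in 2 or more libraries, and tested as log2(value + 1) with limma 3.58.1 (R 4.3.3): 4 group means over 8 libraries, 4 residual degrees of freedom, an intensity trend and Benjamini-Hochberg adjustment over all genes, called at an adjusted p under 0.05. Fold changes on this scale understate changes of low genes. The exon level used the GENCODE M21 (GRCm38) exons and the same fit. Tables and plots were made with Python 3.11.15, pandas 2.3.3, numpy 2.4.6 and matplotlib 3.10.9, and the fit was tested on simulated data. The rule named all 10 members, the called genes and the most abundant gene (by mean) of the list of 20, and the 5 genes most like the members; that likeness used the exon level, which the rule did not name. The members and lists were chosen with earlier results of these data known. The exon level, the assignment of unnamed lines lying 50% or more inside annotated exons and the covariate were added after seeing the data. The main transcript of a gene is its coding transcript with the highest summed TPM, a rule changed once after its output was seen. The series text speaks of more replication than the 2 libraries a group analysed here. Other alternatives are in the closing section.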

Additional observations from a re-analysis of the deposited data

How the results depend on the processing

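The number of called genes moved by over 1.5 times in these cases, with the comparison in parentheses. By named-transcript TPM: Pseudocount of 0.1, 324 (leptotene), 5 (KO stages). No filter on low values, 85 (leptotene), 115 (zygotene), 53 (WT stages), 0 (KO stages), 1 (interaction), 857 (averaged). TPM as deposited, 390 (leptotene), 428 (zygotene), 1 (KO stages). FPKM, 291 (leptotene). With unnamed lines of the same StringTie gene, 639 (leptotene), 551 (zygotene), 5 (WT stages), 14 (KO stages), 7 (interaction), 2405 (averaged). Mean level over all annotated exons, 1357 (leptotene), 1035 (zygotene), 1 (WT stages), 4757 (averaged). With unnamed lines 50% inside annotated exons, 300 (leptotene), 2 (WT stages), 5 (KO stages), 2031 (averaged). Unnamed single-exon share as covariate, 427 (leptotene), 433 (zygotene), 1 (KO stages). Only the libraries of the comparison, 0 (leptotene), 0 (zygotene), 0 (KO stages). TPM at least 5 in 2 libraries, 140 (zygotene). No intensity trend, 343 (zygotene), 1 (WT stages), 1 (interaction). Pseudocount of 5, 1 (interaction). By the exon level: Unnamed single-exon share as covariate, 3102 (leptotene), 2601 (zygotene). Only the libraries of the comparison, 603 (leptotene), 1 (zygotene), 0 (WT stages). Some members gained calls. Syce1 passed at zygotene by named-transcript TPM with a pseudocount of 0.1, deposited TPM, FPKM or the covariate (limma, adjusted p 0.0371 to 0.0488). With unnamed lines of the same StringTie gene, averaged Syce3 and Trip13 passed (limma, adjusted p = 0.0330 and 0.0272). Syce3 passed at leptotene by the exon level with the covariate or the deposited scale (limma, adjusted p = 0.0439 and 0.0487). Tex12 passed at zygotene by the exon level with the covariate (limma, adjusted p = 0.0168).

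With the replicate number as a block, calls by named-transcript TPM were 1 (leptotene), 0 (zygotene), 1 (KO stages), 778 (averaged), and by the exon level 604 (leptotene), 385 (zygotene); Syce1 and Tex12 then lost their exon-level calls (limma, adjusted p = 0.0530 and 0.0541), and the block changed no other call of a member. Same-numbered libraries of KO and WT correlated with r = -0.07 at leptotene and -0.09 at zygotene, and those of the 2 stages with r = 0.20 in WT and 0.07 in KO. With 2 libraries a group and no label on what a number marks, the libraries were taken to share only a number.

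Leaving out each library in turn gave between 0 and 281 calls (leptotene, named), 0 and 5 calls (zygotene, named), 0 and 2 calls (KO stages, named), 0 and 2 calls (interaction, named), 372 and 1149 calls (averaged, named), 1 and 1459 calls (leptotene, exon), 0 and 954 calls (zygotene, exon), 0 and 2 calls (WT stages, exon), 1 and 2 calls (interaction, exon), 2181 and 4181 calls (averaged, exon). The log2 fold changes that then changed sign or, for Hormad1 at zygotene by named-transcript TPM, reached 0, none of them called, ranged from -0.49 to 0.31 (Sycp3, leptotene, named), from -0.90 to 0.44 (Hormad1, leptotene, named), from -0.65 to 0.23 (Sycp1, zygotene, named), from -0.54 to 0.36 (Sycp3, zygotene, named), from -0.61 to 0.39 (Syce2, zygotene, named), from -4.89 to 0 (Hormad1, zygotene, named), from -0.30 to 0.14 (Sycp3, averaged, named), from -0.78 to 0.63 (Hormad2, averaged, named), from -0.68 to 0.45 (Sycp1, leptotene, exon), from -0.58 to 0.40 (Sycp3, leptotene, exon), from -0.67 to 0.56 (Hormad1, leptotene, exon), from -0.34 to 0.23 (Hormad2, leptotene, exon), from -0.32 to 0.49 (Sycp1, zygotene, exon), from -0.23 to 0.39 (Sycp3, zygotene, exon), from -0.35 to 0.38 (Syce2, zygotene, exon), from -0.43 to 0.49 (Hormad2, zygotene, exon), from -0.30 to 0.27 (Sycp1, averaged, exon), from -0.25 to 0.24 (Sycp3, averaged, exon), from -0.0961 to 0.52 (Hormad1, averaged, exon), from -0.24 to 0.21 (Hormad2, averaged, exon).

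Other reversals, none of them called, were 0.0244 (Sycp3, leptotene, named, quantile normalization), 0.0347 (Sycp1, zygotene, named, with unnamed lines of the same StringTie gene), 0.0897 (Sycp1, zygotene, named, mean level over all annotated exons), 0.0999 (Sycp1, zygotene, named, with unnamed lines 50% inside annotated exons), 0.0836 (Sycp3, zygotene, named, mean level over all annotated exons), 0.00698 (Syce2, zygotene, named, mean level over all annotated exons), 0.48 (Hormad1, zygotene, named, mean level over all annotated exons), 0.13 (Hormad1, zygotene, named, with unnamed lines 50% inside annotated exons), 0.0150 (Sycp1, averaged, named, with unnamed lines 50% inside annotated exons), 0.21 (Hormad1, averaged, named, mean level over all annotated exons), 0.00858 (Hormad2, averaged, named, pseudocount of 5), 0.25 (Hormad2, averaged, named, quantile normalization), 0.0141 (Hormad2, averaged, named, with unnamed lines of the same StringTie gene), 0.47 (Hormad2, averaged, named, with unnamed lines 50% inside annotated exons), -0.11 (Sycp1, zygotene, exon, as deposited scale), -0.12 (Sycp3, zygotene, exon, as deposited scale), -0.19 (Syce2, zygotene, exon, as deposited scale), -0.15 (Hormad2, zygotene, exon, as deposited scale), 0.0144 (Sycp1, averaged, exon, unnamed single-exon share as covariate), 0.0340 (Sycp3, averaged, exon, unnamed single-exon share as covariate), 0.0212 (Hormad2, averaged, exon, unnamed single-exon share as covariate). The cause was not tested.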
